A study of Mus musculus with 6 samples.

Results

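DES epithelial cluster 11 is a group of 162 cells from the uteri of CD-1 mice that received diethylstilbestrol (DES), a synthetic estrogen, as newborns. Its cells were taken by the cluster number that the authors' metadata give, and they are 162 of the 4608 DES epithelial cells that carry both a cluster number and counts. The other 4446 cells lie in 15 other DES clusters, and both libraries together hold 48699 cells. The DES library pooled the dissociated uterine horns of 4 mice, which were dosed daily with DES at 1 mg/kg from day 1 to day 5 of life, and the control (CO) library pooled those of 2 mice dosed with corn oil, the vehicle, on the same days. All mice were 12 months old. Spatial sections came from 2 CO and 2 DES mice, with 1 mouse for each section. CO mice were in estrus at collection and DES mice in persistent estrus. The authors took out DES cells with more than 1 count of both Krt14 and Trp63, the basal cells, before they divided the remaining DES epithelial cells into 16 clusters.

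The uterine lumen is lined by a simple columnar epithelium, and glands bud from it into the stroma and secrete factors that early pregnancy needs. Gland cells make secreted enzymes and inhibitors, and both gland and luminal cells carry estrogen and progesterone receptors and change with the hormones of the cycle. Estrogenic compounds given while glands form are known to disturb the division of the epithelium into these cell types. Sult1d1, a sulfotransferase that adds sulfate to small molecules such as catecholamines, and Napsa, an aspartic protease, mark uterine gland cells.

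Counts here are unique molecular identifiers (UMIs), each standing for 1 captured RNA molecule. Cluster 11 held 6111812 UMIs. Its median cell had 26958.5 UMIs and 5341.5 detected genes, against 24530.5 UMIs and 4947.5 genes in the other DES clusters. Mitochondrial genes took a median of 12.3% of a cell's UMIs in cluster 11 and 11.5% elsewhere, and ribosomal protein genes took 24.5% and 25.6%. The median sequencing saturation, the fraction of reads that repeat a UMI, was 0.61 in both. The CO and DES libraries shared 180 cell barcodes, 3 of them in cluster 11. UMIs were summed over cells and scaled to CPM, the level per 1000000 UMIs. Ranges in parentheses after a level are exact Poisson intervals at 95%, and those after a share are exact Clopper-Pearson intervals at 95%. Both intervals cover counting error only, since each condition has 1 library and the cells of single mice cannot be separated. The clusters were formed on these same counts, so that levels in cluster 11 against the other DES clusters are a description and carry no test.

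Both gland markers were higher in cluster 11 than in any other DES cluster, but Sult1d1 stood far below all 4 CO gland clusters, and Napsa far below 3 of them and above CO cluster 13. Sult1d1 was at 62.7 CPM (56.5 to 69.3) in cluster 11 and at 16.8 CPM (16.2 to 17.5) in the other DES clusters. It was at 48.1 CPM in DES cluster 13 and as low as 0.825 CPM in DES cluster 14. Napsa was at 182 CPM (172 to 193) in cluster 11 and at 116 CPM (115 to 118) in the others, where DES cluster 3 came next with 151 CPM. The lowest DES level of Napsa was 46.4 CPM, in cluster 5. In the CO library, the clusters that the authors named as gland had 727 CPM (cluster 3), 870 CPM (cluster 8), 847 CPM (cluster 13) and 618 CPM (cluster 14) of Sult1d1. Napsa was at 2347, 2466, 66.3 and 1681 CPM in those same CO clusters. The median CO cluster had 38.5 CPM of Sult1d1 and 27.3 CPM of Napsa, so that cluster 11 stood above the median CO cluster in both genes. It did so for 62.1% of all genes compared, so this does not set the gland markers apart. The mature gland genes Spink1, Prss28 and Prss29, a protease inhibitor and a pair of serine proteases, had 0 UMIs in cluster 11. Prss29 stood at 51277 CPM in CO cluster 13. Foxa2, a transcription factor needed for uterine glands to form, was at 12.6 CPM in cluster 11 against 16.3 CPM elsewhere and ranked 8 of the 16 DES clusters. With only these markers in its favour, the group is called here by its number and is given no cell type name.

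Per cell, Napsa was found in most cells of cluster 11 and Sult1d1 in fewer. Before thinning, 106 of the 162 cells held a Sult1d1 UMI and 159 held a Napsa UMI. To compare shares at 1 depth, each cell was thinned to 3000 UMIs, which left out 0 of the 162 cells and 49 of the other DES cells. Sult1d1 then had a UMI in 26 of 162 cells, 16% (10.8 to 22.6), against 4.69% (4.08 to 5.35) of the other DES cells. The share was 12.2% (6.99 to 19.3) in DES cluster 13, so these intervals overlap. Napsa had a UMI in 40.7% (33.1 to 48.7) of cluster 11 cells and in 29.1% (27.7 to 30.5) of the others. Both genes together were found in 8.02% (4.34 to 13.3) of cluster 11 cells and in 1.84% (1.47 to 2.28) of the others. Single clusters came closer, with Napsa in 39.0% (34.7 to 43.4) of DES cluster 3 cells and the pair in 4.07% (1.33 to 9.23) of DES cluster 13 cells. Both intervals overlap those of cluster 11. DES mesothelial cells, a cell type that should lack both genes, had Sult1d1 in 0.0793% and Napsa in 1.40% of cells, which gives the level that free RNA may reach. Those mesothelial cells had a median of 12329 UMIs before thinning. In CO clusters 3 and 8 the pair was found together in 81.9% and 87.0% of cells. With cells thinned to 5000 UMIs instead, the pair was in 11.1% of cluster 11 cells and in 12.2% of DES cluster 13 cells.

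**Figure D1:**
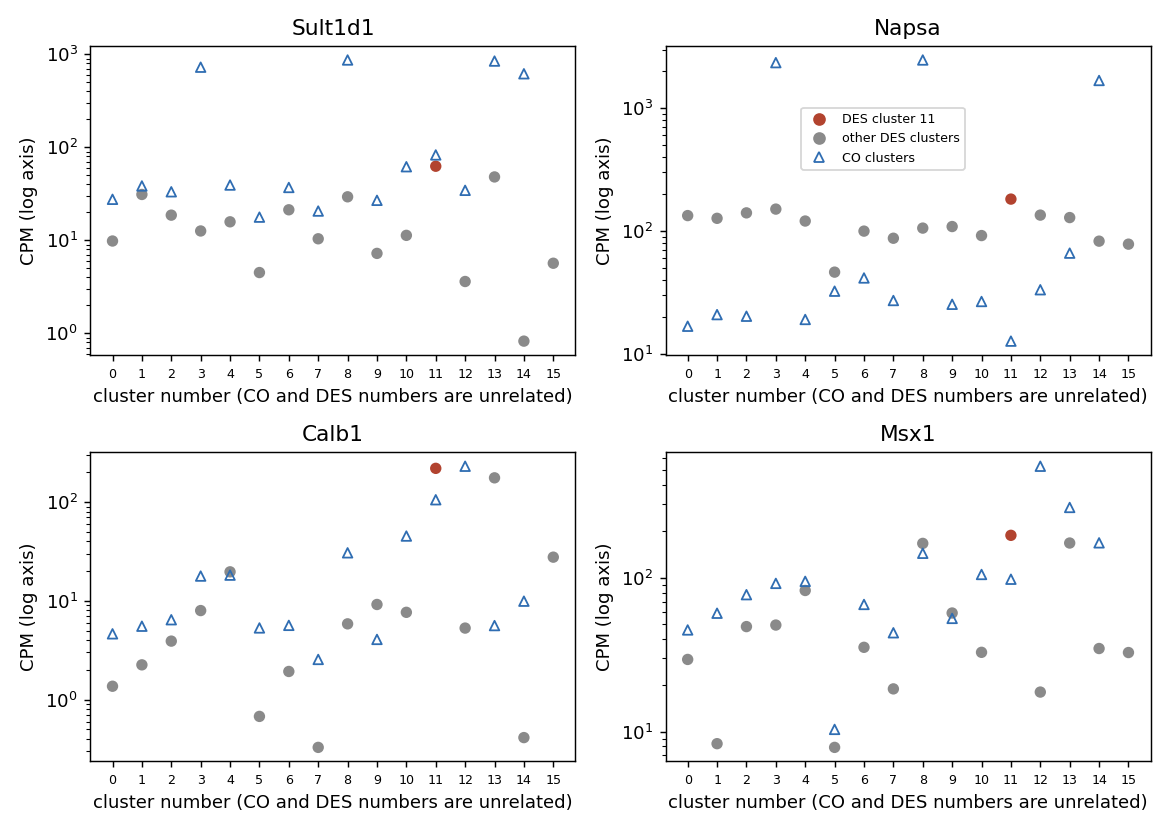
Levels of Sult1d1, Napsa, Calb1 and Msx1 in CPM (log axis) in each of the 16 DES clusters (filled circles, cluster 11 in red) and 15 CO clusters (open triangles), by cluster number, which is unrelated between the libraries. Cluster 11 is the highest DES cluster in all 4 panels, lies below the CO gland clusters 3, 8, 13 and 14 for Sult1d1, and lies near CO cluster 12 for Calb1 (219 and 230 CPM).

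Across the 8305 genes with 10 CPM or more in either population, 422 genes (5.08% of them) were 1.5-fold or more higher in cluster 11 and 359 (4.32%) were 1.5-fold or more lower. The median log2 ratio was 0.06. The shares of 5.08% higher and 4.32% lower are the background for every count of list members below. Cluster 11 had the highest level of the 16 DES clusters for 693 genes (8.34%). The genes that led it were a calcium-binding protein, a homeobox factor, receptors and enzymes, and no single function covered them.

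Calb1, the cytosolic calcium-binding protein calbindin D28k, had the highest ratio among genes at 50 CPM or more. It was at 219 CPM (208 to 231) against 10.6 CPM (10.1 to 11.1) in the other DES clusters, a ratio of 20.7 (19.2 to 22.3). DES cluster 13 held 176 CPM, and the other 14 clusters lay between 0.328 CPM in cluster 7 and 27.7 CPM in cluster 15. Before thinning, 130 of the 162 cells held a Calb1 UMI, the median cell had 138 CPM, and the middle of the distribution ran from 40.2 to 335 CPM. At 3000 UMIs, 40.1% (32.5 to 48.1) of cluster 11 cells, 2.37% (1.94 to 2.86) of the other DES cells and 0.873% of DES mesothelial cells held a Calb1 UMI. The 5% of cells with most Calb1 held 22.1% of its UMIs, so that the level did not come from a handful of cells.

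Among regulators and receptors, Msx1, a homeobox transcription factor of the uterine epithelium before implantation, was at 189 CPM (178 to 200) against 47.2 CPM, a ratio of 4.0 (3.76 to 4.26). DES clusters 13 and 8 came close to it, at 168 and 167 CPM. Crabp2, which carries retinoic acid to its nuclear receptor, was at 139 CPM against 28.9 CPM, a ratio of 4.80 (4.45 to 5.16). Lifr, the receptor of leukemia inhibitory factor, a cytokine that implantation needs, was at 87.2 CPM against 28.1 CPM, a ratio of 3.1 (2.83 to 3.39). DES cluster 13 had 82.2 CPM of Lifr, inside the interval of cluster 11 (80.0 to 94.9). The long noncoding RNA Rmst was at 98.5 CPM against 29.8 CPM.

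Among the enzymes, Hdc, which makes histamine from histidine, was at 94.2 CPM (86.7 to 102) against 18.7 CPM, and it was higher still in DES cluster 13, at 114 CPM. Cbs, which joins homocysteine to serine, was at 103 CPM against 30.0 CPM, a ratio of 3.45 (3.17 to 3.75). Ldhb, a subunit of lactate dehydrogenase, was at 148 CPM against 46.3 CPM. Pla2g7, which inactivates platelet-activating factor, was at 67.1 CPM against 21.5 CPM. These enzymes serve different routes of metabolism. Thrsp, a nuclear protein tied to fat synthesis, was at 169 CPM against 55.1 CPM. Emb, a membrane partner of lactate and pyruvate carriers, was at 113 CPM against 26 CPM, beside 58.1 CPM in the next cluster. Cnn3, an actin-binding calponin, was at 76.9 CPM against 26.8 CPM. The chemokine Ccl28 was at 56.0 CPM against 21.5 CPM, and DES cluster 15 exceeded it with 83.0 CPM. A gene that the files name RP23-162H6.1 was at 61.4 CPM (55.3 to 67.9) against 10.0 CPM, a ratio of 6.11.

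Of these 15 leading genes, 13 had their highest level of the 16 DES clusters in cluster 11, beside 8.34% of all genes compared. Their choice by ratio in the same counts favours this, so the count is no separate finding. Cluster 13 held the highest or second highest level for most of these genes. Calb1 lies at chr4:15881264-15908064 on the plus strand, Msx1 at chr5:37820485-37824583 on the minus strand, Sult1d1 at chr5:87554645-87569027 on the minus strand and Napsa at chr7:44572380-44586862 on the plus strand of GRCm38, all as protein-coding genes.

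**Figure D2:**
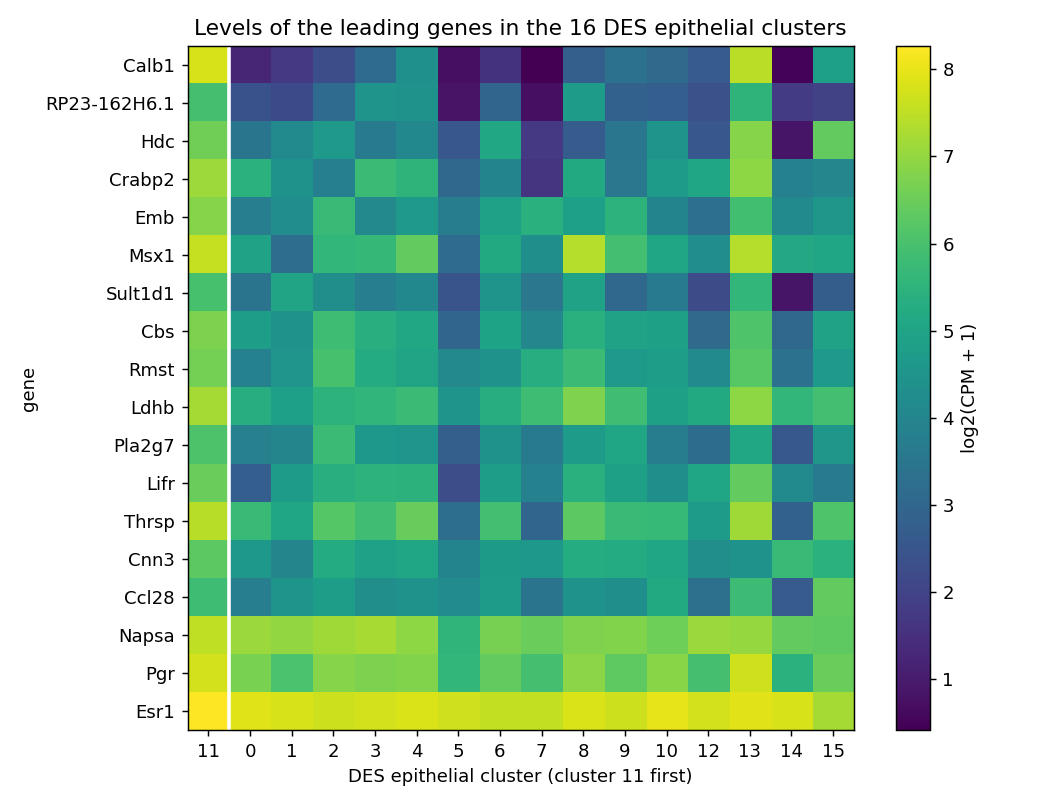
Levels of the 15 leading genes and of Napsa, Pgr and Esr1, as log2(CPM + 1), in the 16 DES clusters (columns, cluster 11 first). Cluster 11 and cluster 13 are the brightest columns for Calb1 (219 and 176 CPM), while Esr1 is high in every cluster.

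Promoter sequences of 3 genes are shown because their upstream windows differ in the short motifs they hold, and because they stand for a gland marker (Sult1d1), a leading regulator (Msx1) and the sterol genes described further on (Hmgcs1, the enzyme that makes HMG-CoA). Each is the 250 bases before the gene's start from RefSeq on GRCm38.p6, read along the gene's strand. Capitals mark the CCAAT box (CCAAT) and the sterol regulatory element (TCACNCCAC), each searched on both strands, so that a CCAAT box on the other strand reads ATTGG. The genes and motifs were chosen after levels had been seen.
Sult1d1, chr5:87569007-87569256, minus strand: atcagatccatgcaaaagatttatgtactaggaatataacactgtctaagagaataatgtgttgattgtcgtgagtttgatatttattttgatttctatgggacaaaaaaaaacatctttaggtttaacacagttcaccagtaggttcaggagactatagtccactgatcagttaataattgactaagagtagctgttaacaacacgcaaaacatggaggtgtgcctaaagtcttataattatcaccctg
Msx1, chr5:37824586-37824835, minus strand: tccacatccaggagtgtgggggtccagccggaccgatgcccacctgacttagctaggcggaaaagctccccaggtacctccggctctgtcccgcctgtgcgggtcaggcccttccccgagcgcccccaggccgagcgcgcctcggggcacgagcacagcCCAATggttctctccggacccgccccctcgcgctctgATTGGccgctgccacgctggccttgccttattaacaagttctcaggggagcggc
Hmgcs1, chr13:119690101-119690350, plus strand: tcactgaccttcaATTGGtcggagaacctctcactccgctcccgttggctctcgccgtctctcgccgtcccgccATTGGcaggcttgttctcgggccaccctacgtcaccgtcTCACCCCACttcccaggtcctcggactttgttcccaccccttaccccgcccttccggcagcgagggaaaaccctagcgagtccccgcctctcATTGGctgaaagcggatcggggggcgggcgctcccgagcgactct
The Sult1d1 window held neither motif, and the Msx1 window held 2 CCAAT boxes, which began 91 and 54 bases before the start. The Hmgcs1 window held 3 CCAAT boxes and 1 sterol regulatory element, which began 137 bases before the start. A CCAAT box was found in 37.5% of 27025 genes with a window of this length, in 6 of the 11 leading genes in the promoter table (Msx1, Cbs, Ldhb, Lifr, Thrsp and Cnn3) and in 8 of the 9 lipid and cholesterol genes there. The sterol regulatory element was found in 1.2% of all genes, and among these 2 lists in Hmgcs1 and Cnn3. The palindromic estrogen response element (GGTCA and TGACC with any 3 bases between) was found in 0.0666% of genes, and in 0 of the genes in both lists. A match in such a window is a description of its letters and not of a factor bound there.

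The genes with the lowest levels in cluster 11 were led by antigen presentation, by secreted proteins and by genes high in only some DES clusters. H2-Aa, a chain of the MHC class II molecule that displays peptides to T cells, was at 3.76 CPM (2.39 to 5.65) against 73.6 CPM (72.2 to 74.9), 19.6-fold lower. H2-Ab1, its partner chain, was at 5.56 CPM against 75.3 CPM. Cd74, the chain that guides class II molecules through the cell, was at 43.2 CPM (38.1 to 48.7) against 560 CPM (556 to 564), 13-fold lower. These 3 genes were highest in DES cluster 7, where Cd74 reached 1628 CPM. Prap1, a secreted proline-rich protein of the uterus, was at 211 CPM (199 to 223) against 2558 CPM, and Spink12, a member of a family of secreted protease inhibitors, was at 224 CPM (213 to 237) against 1962 CPM. Serpina1c, a secreted serine protease inhibitor, was at 60.2 CPM against 385 CPM and Serpinb11, of the same superfamily, at 56.3 CPM against 310 CPM. Spink12, Serpina1c, Serpinb11 and the homeobox gene Meis2 (11.6 against 145 CPM) had the lowest level of the 16 DES clusters in cluster 11. The other secretory and epithelial genes of the 15 lowest were high in a few clusters. Crh, the hormone that drives the release of corticotropin, was at 11.5 CPM against 148 CPM and peaked at 434 CPM in DES cluster 0. Olfm4 (a secreted glycoprotein), Upk1a (a uroplakin of bladder epithelium) and Krt5 (a basal keratin) were at 3.27, 5.40 and 8.34 CPM in cluster 11. DES cluster 5 held 685, 421 and 645 CPM of them. DES cluster 13 was as low or lower in several of these genes, with 3.68 CPM of H2-Aa, 2.10 CPM of H2-Ab1, 32.6 CPM of Cd74, 1.84 CPM of Crh, 0.788 CPM of Olfm4 and 7.36 CPM of Il33. Of the 15 lowest genes, 4 were 1.5-fold or more lower in cluster 11 than in cluster 13. Others, Crh, Il33, Olfm4 and H2-Ab1 among them, were past 1.5-fold in the other direction. The alarmin Il33 was at 22.1 CPM against 122 CPM, the interferon-induced GTPase Gbp4 at 6.05 CPM against 52.9 CPM and the gene named RP23-369M17.1 at 10.5 CPM against 110 CPM.

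The low levels did not rest on a uniform trace in every cell. Of the 162 cells, 12 held an H2-Aa UMI (7.41%, 3.89 to 12.6, against 36.9% of the other DES cells) and 22 held a Crh UMI before thinning, and the 5% of cells with most Crh held 80.0% of its UMIs. At 3000 UMIs, H2-Aa had a UMI in 0 of 162 cells, which allows a share of cells with a UMI at that depth of up to 1.85% (3 cells), against 13.3% (12.3 to 14.3) of the other DES cells. The exact Clopper-Pearson interval for 0 of 162 cells reaches further, to 2.25%. The DES clusters most like cluster 11 were low too, with 0.813% (0.0206 to 4.45) in cluster 13, 1.39% (0.561 to 2.85) in cluster 3 and 2.24% (1.12 to 3.97) in cluster 4. Crh had a UMI in 3 of 162 cells, 1.85% (0.384 to 5.32), against 23.1% (21.9 to 24.4) of the other DES cells and 1.48% of DES mesothelial cells. Prap1 was uneven as well, with a median cell at 57.0 CPM, below the summed level and a highest cell of 165 UMIs.

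**Figure D3:**
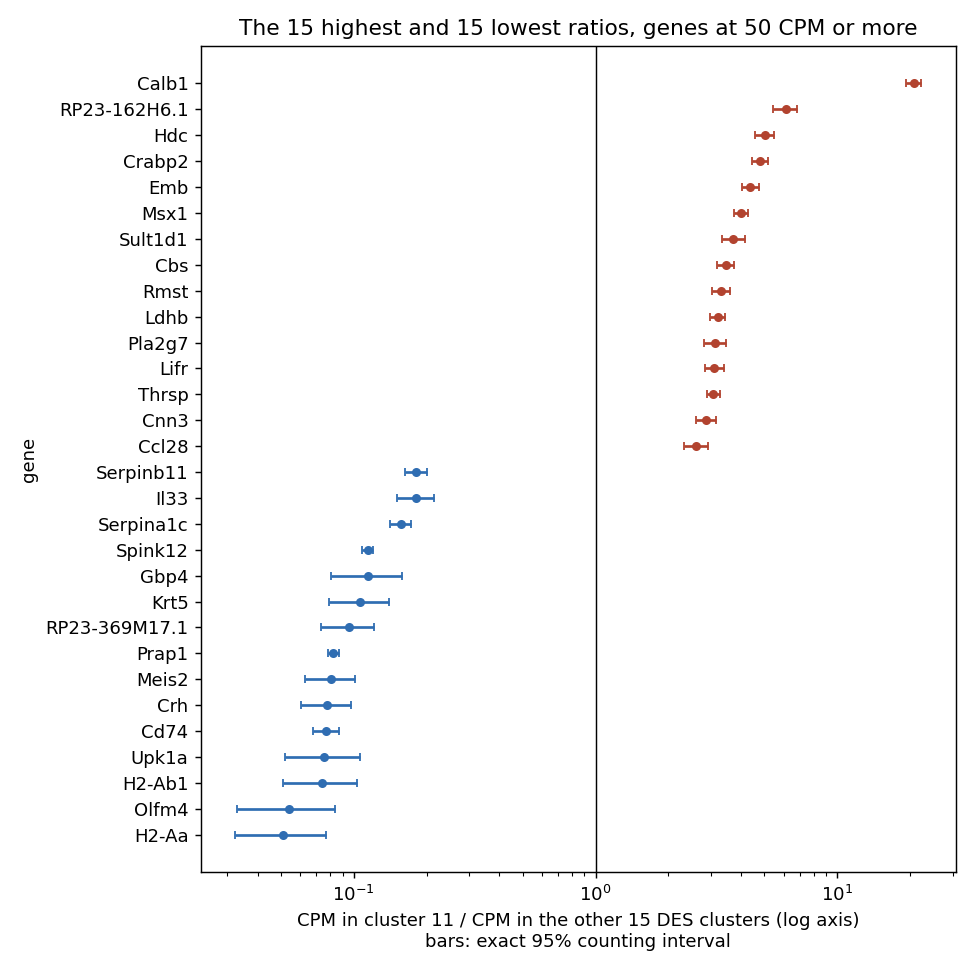
Ratio of CPM in cluster 11 to CPM in the other 15 DES clusters (log axis) for the 15 genes with the highest (red) and the 15 with the lowest (blue) ratio, among genes at 50 CPM or more in either population; bars are 95% counting intervals. The ratios run from 20.7 for Calb1 to 0.0511 for H2-Aa.

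The progesterone and estrogen receptor genes both had their highest DES level in cluster 11, and Pgr differed the more. Pgr, the progesterone receptor gene, was at 214 CPM (202 to 226) against 92.0 CPM (90.6 to 93.6), a ratio of 2.32 (2.19 to 2.46). DES cluster 13 was at 207 CPM, inside that interval, and DES cluster 14 was lowest at 42.5 CPM. Esr1, the estrogen receptor that DES binds, was at 308 CPM (294 to 322) against 214 CPM, a ratio of 1.44 (1.37 to 1.51), and it was high in every DES cluster, from 146 CPM upward. The glucocorticoid receptor Nr3c1 was at 16.5 CPM against 19.4 CPM. At 3000 UMIs, Pgr had a UMI in 46.3% (38.4 to 54.3) of cluster 11 cells, in 22.7% (21.4 to 23.9) of the other DES cells and in 1.06% of DES mesothelial cells. Genes known to respond to estrogen did not move together. Of 8 such genes compared, 2 were 1.5-fold or more higher (Pgr, and Greb1 at 27.0 against 16.3 CPM, which turned to a log2 ratio of -0.24 in cells thinned to 3000 UMIs) and 5 were lower. The lower ones included the iron-siderophore binder Lcn2 (1304 against 2709 CPM), the secreted protein Clca1 (867 against 1737 CPM) and the complement component C3 (573 against 948 CPM). Lactoferrin, Ltf, was at 2064 CPM against 2365 CPM. The median log2 ratio of these 8 genes was -0.74. Of all genes compared, 5.08% were 1.5-fold or more higher and 4.32% lower.

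Genes of lipid and cholesterol synthesis were higher in cluster 11 in the main. Of 15 compared, 11 were 1.5-fold or more higher and 0 were lower, beside 5.08% and 4.32% of all genes compared. The median log2 ratio was 0.97 beside 0.06 for all genes. Sqle, which makes squalene epoxide, was at 42.7 CPM (37.7 to 48.2) against 12.9 CPM, a ratio of 3.31 (2.90 to 3.76). The fatty acid desaturase Scd1 was at 14.4 CPM (11.5 to 17.7) against 3.58 CPM, and its relative Scd2 was the most abundant member, at 970 CPM (946 to 995) against 599 CPM. Along the sterol route, Hmgcs1 was at 62.2 against 31.7 CPM, Idi1 at 43.4 against 20.5 CPM, Fdps at 71.7 against 34.2 CPM, Fdft1 at 51.0 against 24.8 CPM and Cyp51 at 45.2 against 20.3 CPM. These enzymes act one after another on the route to cholesterol. Srebf2, the factor that drives sterol genes, was at 39.8 against 24.6 CPM, though its log2 ratio was -0.21 in cells thinned to 3000 UMIs. Fasn, the fatty acid synthase, was at 57.4 against 48.3 CPM, Insig1 at a ratio of 1.33 and Srebf1 at 1.1. DES cluster 13 was at the same level or above for several of them, with 42.0 CPM of Sqle, 66.7 CPM of Hmgcs1, 59.4 CPM of Idi1 and 91.2 CPM of Fdps. Cluster 11 had the highest DES level for 5 of the 15 genes (Sqle, Srebf2, Scd1, Scd2 and Acaca), beside 8.34% of all genes compared. Set beside the median CO cluster, 5 of the 15 genes were higher in cluster 11 and 10 were lower, with no test, beside 62.1% and 37.9% of the 8305 genes compared. Hmgcs1, Fdps and Cyp51 were among those lower, at 118, 136 and 107 CPM in the median CO cluster, and Scd2 and Scd1 among those higher, at 468 and 3.65 CPM in it.

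MHC class II genes, 4 of 7 genes of the class I route and 5 of 8 listed interferon-stimulated genes were lower, beside 4.32% of all genes compared. Summed over each list in that order, cluster 11 was at 58.1, 1337 and 293 CPM. The lowest other DES cluster was at 43.1, 913 and 203 CPM, so cluster 11 was the lowest in none of these sums. All 5 MHC class II genes compared were 1.5-fold or more lower, with a median log2 ratio of -3.76, and Ciita, the factor that switches them on, was at 0.327 CPM (2 UMIs) against 4.17 CPM. Of the 7 genes of the class I route, 4 were lower and 0 higher. B2m, the light chain of class I molecules, was at 274 CPM against 529 CPM, and the proteasome subunits Psmb8 and Psmb9 were at 92.4 against 178 CPM and 23.7 against 52.3 CPM. The class I heavy chains H2-K1 and H2-D1 were at 485 against 666 CPM and 440 against 534 CPM. Of 8 interferon-stimulated genes, 5 were lower and 0 higher, led by Irf7 (6.38 against 29.7 CPM) and Ifit1 (11.9 against 39.0 CPM), while Ifi27 was at 150 against 152 CPM. Not all interferon-induced genes went this way. Among Ifitm genes, which are outside the list and are named after their values were seen, Ifitm3 was at 3541 against 2132 CPM, Ifitm1 at 2380 against 1433 CPM, Ifitm2 at 1199 against 737 CPM and Ifitm6 at 23.9 against 11.3 CPM. Of 4 chemokines compared, Ccl28 was higher and 0 were lower, with a median log2 ratio of 0.19. Markers of T and natural killer cells summed to 1.47 CPM in cluster 11 and to 5.93 CPM in the other DES clusters, and 3 of these 6 markers (Cd3e, Nkg7 and Gzmb) were at 0 in cluster 11. The part of such cells in the class II levels was not tested.

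Lower counts of immediate early genes, which can respond to handling of tissue, rested on DES cluster 9. Of 11 immediate early genes, 7 were 1.5-fold or more lower and 0 higher, beside 4.32% and 5.08% of all genes compared. The median log2 ratio of the 11 genes was -1.13. Fos was at 53.8 CPM against 188 CPM, Egr1 at 8.02 against 37.7 CPM and Atf3 at 4.42 against 27.0 CPM, while Jun was at 146 against 173 CPM. DES cluster 9 held 2519 CPM of Fos, and cluster 11 ranked 10 of 16. With DES cluster 9 left out of the other clusters, a comparison added after the data were seen, 8 immediate early genes were compared, 0 were lower and 1 was higher (Ier3), with a median log2 ratio of -0.10, and Fos was at 53.8 against 68.3 CPM. Of 7 heat shock genes, 4 were lower, among them Hspa1a at 11.1 against 30.9 CPM, and Hspa8 was at 857 against 931 CPM, and 2 of 7 were lower without cluster 9. How far dissociation moved these genes was not tested.

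Luminal and mucin genes stood at the low end. Of 8 luminal genes, 5 were lower and 0 higher, beside 4.32% and 5.08% of all genes compared. The median log2 ratio of the 8 genes was -1.41. Lrmp had 2 UMIs in cluster 11, a ratio of 0.0203 (0.00245 to 0.0733) to the 16.1 CPM of the other clusters, and Itgam, an integrin chain, was at 16 against 79.1 CPM. The membrane mucins Muc1 and Muc4 were at 160 against 268 CPM and 30.3 against 65.4 CPM, and the 4 mucin and trefoil genes compared were all lower. Tff1, a secreted trefoil peptide, had 0 UMIs in cluster 11 and 11.2 CPM elsewhere, at least 22.9-fold lower against a floor of 3 UMIs over the cluster. Of 4 developing gland genes compared, 2 were lower and 0 higher. Beside Prap1, Wnt7b was lower (12.6 against 26.8 CPM), whereas the calcium-binding S100g was at 530 against 572 CPM and Hif1a at 81.6 against 64.8 CPM. Klk1, a kallikrein, was at 5.89 CPM (4.13 to 8.15) against 1.63 CPM, and 25.2 CPM in DES cluster 13.

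Among signalling genes, single members differed and lists did not move as a whole. Of 4 Wnt ligands compared, Wnt5a was higher (70.0 CPM, 63.6 to 77.0, against 36.9 CPM) and Wnt7b lower, with Wnt7a at 67.1 against 62.4 CPM and Wnt4 at 79.2 against 99.5 CPM. Of 8 Wnt receptors, 3 were higher, Fzd6 (91.1 against 52.4 CPM), Fzd2 (17.7 against 9.88 CPM) and the co-receptor Lrp5 (10.3 against 5.10 CPM). Of 6 Wnt targets, the cyclin Ccnd2 was higher (96.5 against 50.8 CPM) and Sox9, a factor of progenitor and gland cells, was lower (19.3 against 54.4 CPM), with Axin2 at 13.3 against 9.28 CPM. In the Notch pathway the ligand Jag1 was higher (39.6 against 21.9 CPM) and Notch3 was near the minimum level (5.56 against 10.0 CPM), and Notch1 was at 56.9 against 41.1 CPM. Among 13 epithelial transcription factors compared, Msx1, Ehf (137 against 81.2 CPM) and Klf5 (119 against 78.4 CPM) were higher, and Sox9 and Elf3 (356 against 538 CPM) were lower. Sox17, which gland formation needs, was at 302 CPM against 212 CPM and had its highest DES level here. Of 6 proposed stem cell genes, Gstm7 (70.8 against 48.4 CPM), Axin2 and Wnt7a could be compared and 0 were past 1.5-fold.

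Energy and general epithelial genes were near the other clusters. Of 14 nuclear genes of oxidative phosphorylation and 9 mitochondrially encoded genes, 0 were past 1.5-fold in either direction, and of 12 glycolysis genes only the hexokinase Hk1 was (22.9 against 9.33 CPM). Among the simple epithelium genes 0 of 6 were past 1.5-fold, with Epcam at 804 against 806 CPM. Of 12 genes of the unfolded protein response, 1 was (Creb3l1, 15.7 against 10.2 CPM), and 0 were with DES cluster 5 or 7 left out of the other clusters. Of 13 antioxidant genes, Gpx2 (32.2 against 11 CPM) and Cat (34.7 against 21.9 CPM) were higher and Gpx1 (704 against 1153 CPM) and Prdx5 (215 against 323 CPM) lower. Of 10 proteases, Napsa and Ctsb (645 against 401 CPM) were higher and Ctss (30.6 against 60.1 CPM) was lower. Among 7 cell cycle genes, the replication factor Mcm2 was higher (34.7 against 21.0 CPM), and Cdk1, Ccnb2 and Birc5, which act in mitosis, were lower, though with DES cluster 6 left out of the other clusters 5 cell cycle genes were compared and 2 were higher and 0 lower. Top2a was at 28.6 against 31.5 CPM.

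Markers of other cell types went different ways. The 4 erythroid markers summed to 528 CPM in cluster 11 and 556 CPM elsewhere (315 to 1070 CPM in the other 15 DES clusters), and 0 of the 3 compared were past 1.5-fold. The 5 endothelial markers summed to 8.67 CPM in cluster 11, above the 0.918 to 5.34 CPM of the other 15 DES clusters. The junction protein gene Cdh5 gave most of this, at 4.91 CPM (30 UMIs in 25 cells, at most 2 in a cell) against 0.203 CPM, while Pecam1 was at 1.1 CPM in both and Kdr was at 0. Outside this list, and named after their values were seen, Flt1, a VEGF receptor of endothelium, was at 25.7 CPM (157 UMIs) against 3.11 CPM, a ratio of 8.26, and Clec14a was at 15.2 against 10.1 CPM. Cluster 11 had the highest DES level of both. Pericyte markers were at 0 in all 5 genes. Stromal markers summed to 123 CPM in cluster 11 and 131 CPM elsewhere, of which Dcn made up 87.0 and 90.7 CPM, with Dpt at 0. The 6 myeloid markers summed to 68.4 CPM in cluster 11 and 66.9 CPM elsewhere, with Lyz2 at 24.2 against 12.6 CPM, Cd68 at 40.6 against 49.6 CPM and Csf1r at 0. The part of such cells in the levels of cluster 11 was not tested.

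**Figure D4:**
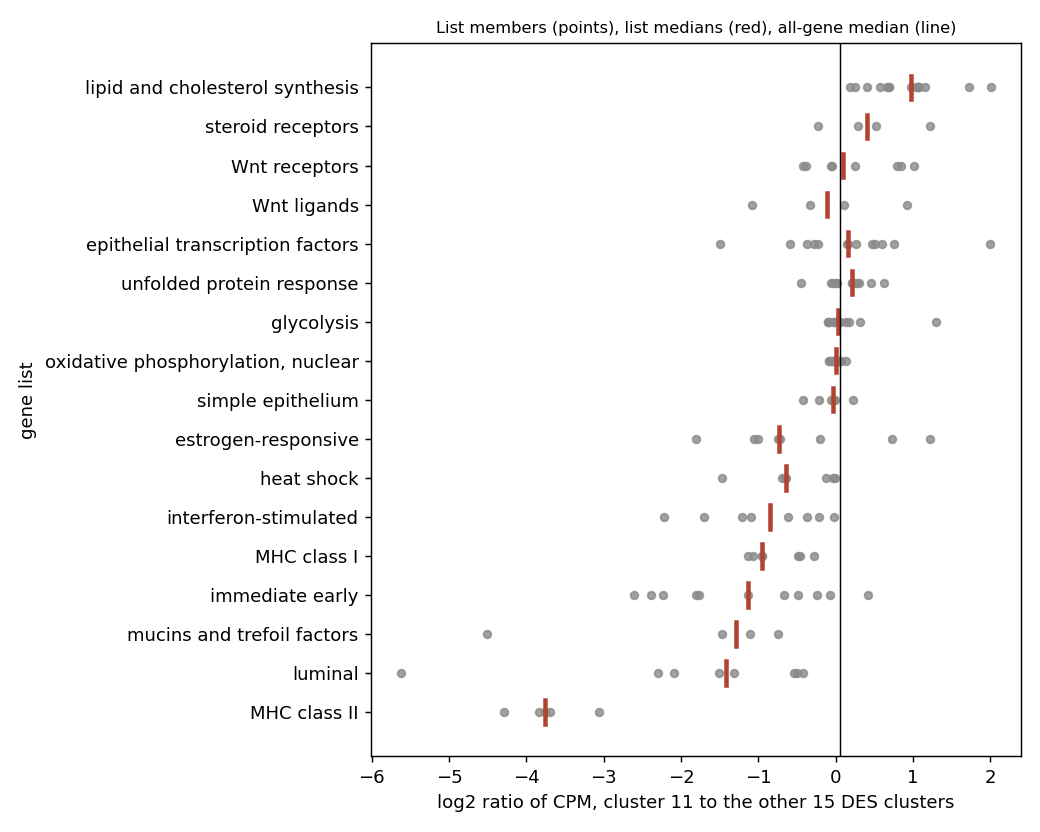
Log2 ratio of CPM, cluster 11 to the other 15 DES clusters, for each compared member (grey points) of 17 gene lists, with list medians in red and the median of all 8305 genes as a line at 0.06. Lipid and cholesterol synthesis has the highest median (0.97) and MHC class II the lowest (-3.76).

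Cells of cluster 11 were not all alike. In the authors' joint clustering of CO and DES epithelial cells, 133 of the 162 (82.1%, 75.3 to 87.7) fell in integrated cluster 9, against 163 of the 4446 other DES cells (3.67%, 3.13 to 4.26). Of the remaining 29 cells, 10 fell in integrated cluster 3, 9 in cluster 7, 8 in cluster 6 and 1 in each of clusters 5 and 11. The 133 cells had 249 CPM (235 to 264) of Calb1 and 71.6 CPM (64.1 to 79.8) of Sult1d1. The 29 others had 131 CPM (114 to 150) and 36.2 CPM (27.3 to 47.0). Msx1 was at 210 and 127 CPM in the same 2 sets. Prap1 and Spink12 went the other way, at 132 and 156 CPM in the 133 cells and at 444 and 426 CPM in the 29 others. Serpina1c was at 28 and 155 CPM. Pgr was at 214 CPM (201 to 228) and 212 CPM (190 to 236), with overlapping intervals. The integrated clusters rest on the same counts, so these values are a description as well.

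By correlation DES cluster 13 was narrowly ahead of cluster 4 in likeness to cluster 11. Over 3701 genes at 50 CPM or more in any cluster, the Pearson correlation of log2(CPM + 1) with cluster 11 was 0.974 for DES cluster 13, 0.973 for cluster 4 and 0.967 for cluster 3, and lowest, at 0.849, for cluster 5. Counted by genes past 1.5-fold, as given next, fewer genes differed from cluster 4 than from cluster 13. All these clusters come from 1 library and share its free RNA, but their depths differ. The median cell had 51066.5 UMIs in cluster 4, 21701 in cluster 13 and 14770 in cluster 3. Summed UMIs were 26664965 in cluster 4 and 3806756 in cluster 13. The part of depth in the counts of genes past 1.5-fold was not tested. Integrated cluster 9 held 81 of the 123 cells of cluster 13 (65.9%, 56.8 to 74.2). Against cluster 13, 294 of 8367 genes (3.51%) were 1.5-fold or more higher in cluster 11 and 468 (5.59%) lower, and 4 of the 15 leading genes were past 1.5-fold. Against cluster 4, 399 genes (4.84%) were higher and 228 (2.76%) lower, and against cluster 3, 695 (8.44%) were higher and 192 (2.33%) lower, with all 15 leading genes past 1.5-fold in both. The leading genes were chosen by their ratio to the summed other clusters, where cluster 4 holds more UMIs than cluster 13. Genes high in cluster 4 were thus less likely to be chosen, and the counts of leading genes do not measure likeness.

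Some genes differed between clusters 11 and 13, the leading gene Cnn3 among them. Lypd8, a membrane-anchored protein of the Ly6 family, was at 55.3 CPM in cluster 11 and at 3.15 CPM in cluster 13, a ratio of 17.5 (9.91 to 34.3). Cnn3 was at 76.9 against 20.5 CPM, Gstm7, a glutathione transferase, at 70.8 against 25.5 CPM and Pla2g7 at 67.1 against 33.6 CPM. In the other direction, the cornified envelope genes Sprr2b and Sprr2a3 were at 18.8 and 28.3 CPM in cluster 11 and at 185 and 167 CPM in cluster 13. The calcium-binding S100a6 was at 216 against 773 CPM and Serpina1c at 60.2 against 209 CPM. Against clusters 4 and 3, Serpinb7 was low, at 41.9 CPM against 405 and 343 CPM.

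Among CO clusters, cluster 12 was the most like cluster 11, with a correlation of 0.888, and the lowest was cluster 14 at 0.758. The paper proposes CO cluster 12 as epithelial stem cells. It places non-basal DES epithelium in general nearer to them than to luminal or gland cells. Other DES clusters were not correlated with the CO clusters here, so this likeness is not shown to be particular to cluster 11. Integrated cluster 9 held 45 CO cells, 44 of them from CO cluster 12. That CO cluster, of 71 cells, was examined after this was seen. The paper places the proposed stem cells within other integrated clusters than 9, and this difference from the deposited cluster numbers was not resolved here. Of the 15 leading genes, 7 were 1.5-fold or more higher in CO cluster 12 than in the other CO clusters, where 19.0% of 8467 genes were, and 5 were 1.5-fold or more lower (RP23-162H6.1, Crabp2, Sult1d1, Lifr and Ccl28), where 934 of the 8467 genes were. Of the 15 lowest genes, 8 were compared there, and 3 were higher (Cd74 at 57.1 against 28.2 CPM, H2-Ab1 at 17 against 7.07 CPM and Il33 at 85.4 against 47.8 CPM) and 3 lower. Calb1 was at 230 CPM (208 to 254) in CO cluster 12 against 14.3 CPM, Msx1 at 531 CPM (497 to 566) against 69.1 CPM, Thrsp at 180 CPM against 28.1 CPM and Rmst at 49.8 CPM against 2.26 CPM. For these 4 genes CO cluster 12 was the highest of the 15 CO clusters. Crabp2 was at 2.26 CPM (4 UMIs) and Sult1d1 at 34.5 CPM there, below the 18.8 and 117 CPM of the other CO clusters. Of the 15 lipid and cholesterol genes compared, 1 was 1.5-fold or more higher in CO cluster 12 and 10 were lower. Pgr was at 166 CPM (148 to 186) against 73.8 CPM. Of the proposed stem cell genes, Gstm7 was at 1121 CPM in CO cluster 12 and at 70.8 CPM in DES cluster 11. Wnt7a was at 81.5 and 67.1 CPM and Axin2 at 22.1 and 13.3 CPM in the same 2 clusters. Aldh1a1, En2 and Lgr5 were at 83.2, 47.0 and 39.6 CPM in CO cluster 12 and below the minimum of 10 CPM in DES cluster 11. CO and DES clusters come from different libraries, and condition and library cannot be told apart.

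Whole tissue sections from other mice gave the only test. It set DES against CO over all cell types of a section, so it does not test cluster 11 against the other DES clusters. UMIs were summed over all spots of each section, and the 4 sections held 9117099 to 12506177 UMIs in 1357 to 1834 spots. The paper reports a marked tissue fold in CO section B and limited cluster identification in DES section B. It therefore left both B sections out of most of its spatial analyses. The paper also states that DES tissue was evaluated for the presence of uterine adenocarcinoma before 2 mice per group were selected. Blocks were then cored for areas of interest, and the paper describes cancer regions in the DES sample. All sections were kept here, and the part of these features in the section values was not tested. Among 14098 genes, the quasi-likelihood test of edgeR, adjusted by Benjamini-Hochberg at 0.05, called 376 (2.67%) higher and 371 (2.63%) lower in DES. Of the 15 leading genes of cluster 11, 14 could be tested, and 0 were higher and 2 lower, Msx1 and RP23-162H6.1. At an unadjusted p under 0.05, edgeR called 0 higher and 9 lower, where 11.6% and 12.8% of all genes were. DESeq2 with adjusted p under 0.05 called 0 higher and 6 lower of 15, beside 5.38% and 6.35% of all genes. These counts depended on single sections. Without CO section A, edgeR's adjusted p called 2 higher and 7 lower of 15, beside 9.02% and 10.4% of all genes, and without CO section B 1 and 7, beside 7.91% and 8.19%. Without DES section A it called 0 and 0, beside 0.0955% and 0 of all genes (0 and 7 at an unadjusted p under 0.05, beside 5.65% and 6.10% of all genes), and without DES section B 0 and 0, beside 0.0204% and 0 (0 and 6 at that p, beside 5.72% and 5.92%). In section sums, fewer cells of a type and less RNA in each cell cannot be told apart, and 162 cells of 1 pooled library need not match their number in a section.

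Msx1 was at 85.0 and 92.2 CPM in CO sections A and B and at 12.6 and 6.95 CPM in DES sections A and B (CPM scaled by TMM factors). Both DES sections lay below both CO sections, and the log2 change of DES from CO was -3.18 (SE 0.33, edgeR adjusted p = 0.0212). RP23-162H6.1 was at 37.3 and 21.4 CPM in CO and at 4.59 and 5.02 CPM in DES, a log2 change of -2.61 (SE 0.34, edgeR adjusted p = 0.0291). Leaving out DES section A or DES section B ended the calls of both genes, with edgeR adjusted p of 0.0557 and 0.0860 for Msx1 and of 0.168 and 0.161 for RP23-162H6.1. Over the sections left out in turn, the log2 change ran from -3.68 to -2.83 for Msx1 and from -2.95 to -2.15 for RP23-162H6.1.

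The 2 gland markers did not pass the test. Sult1d1 was at 9.62 and 78.0 CPM in the CO sections and at 1.10 and 4.73 CPM in the DES sections, without overlap (edgeR adjusted p = 0.141). Napsa was at 14.8 and 49.8 CPM in CO and at 22.2 and 9.65 CPM in DES, with overlap (edgeR adjusted p = 0.437). Calb1 was at 30.1 and 1.73 CPM in CO and at 0.999 and 0.289 CPM in DES (edgeR adjusted p = 0.158). In Calb1 and Sult1d1 the CO sections lay far from each other. They did so in Prap1 as well, at 2925 and 30907 CPM without TMM scaling. The Calb1 values of the DES sections rest on 10 and 3 UMIs. Crabp2 went the other way, at 30.8 and 2.21 CPM in CO and 96.2 and 46.6 CPM in DES (edgeR adjusted p = 0.325). Over the 15 leading genes, both DES sections lay below both CO sections for 10 genes (27.8% of genes tested) and above both for 3 (28.6%), which were Crabp2, Emb and Rmst. Rmst was not tested, and rests on 2 and 6 UMIs in CO and 11 and 6 UMIs in DES. The median log2 change was -1.61 over the 14 leading genes tested and -0.01 over all genes tested.

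The tissue make-up of the sections differed beside these values. Epcam was at 451 and 256 CPM in CO and at 435 and 501 CPM in DES, and the basal keratin Krt14 at 1.68 and 59.7 CPM in CO and at 4175 and 2019 CPM in DES (both without TMM scaling). The part of this make-up in the section values was not tested. By the authors' spot groups, Msx1 in the DES sections was highest in groups with little epithelial RNA, at 108 CPM in group 6 of section A (166 spots) and 53.9 CPM in group 8 of section B (101 spots). The sum of Epcam, Krt8 and Krt18 was 214 and 242 CPM in these groups, beside 2267 CPM in group 2 of section A, where Msx1 was at 16.9 CPM. Sult1d1 in DES section B had 42 of its 49 UMIs in group 7 (106 spots), where the same epithelial sum was 2657 CPM. Spots hold several cells and are not replicates.

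**Figure D5:**
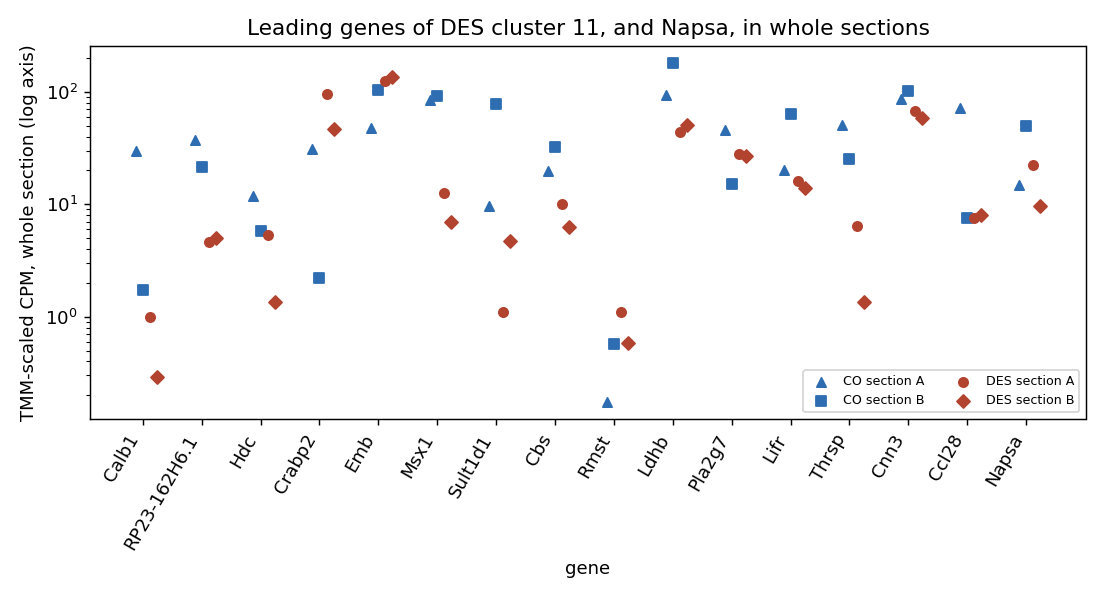
Levels of the 15 leading genes and Napsa in whole sections (TMM-scaled CPM, log axis), with 1 point for each of the 2 CO sections (blue) and 2 DES sections (red). Msx1 (85.0 and 92.2 CPM in CO, 12.6 and 6.95 CPM in DES) and RP23-162H6.1 were the 2 genes past the test's threshold.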

How the data were processed

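Uteri of CO and DES mice were measured as single cells (1 library each) and as spatial sections (2 each). The authors counted UMIs for each gene and cell with Cell Ranger 3.0.1, and for each Visium spot with Space Ranger 1.2.2, on mm10 (versions from the submitters' processing notes), and the deposited counts are not normalized. They removed doublets, named cell types and clustered cells and spots. Per cell, the deposited sequencing saturation is a fraction that the authors computed.

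Of 4610 numbered DES cells, 2 had no counts. UMIs were summed over cells and scaled to CPM. Genes at 10 CPM or more in either population were compared, and ratios of 1.5 or more in either direction were counted. The genes named are the 15 highest and 15 lowest ratios among genes at 50 CPM or more, Sult1d1, Napsa and members of gene lists. The cluster, lists and rules were chosen with earlier results of these data known, and the genes that differ from the nearest clusters and CO cluster 12 after their values were seen. Cells were thinned to 3000 UMIs with a fixed random seed (20230). Section sums, the replicates being mice, were tested with edgeR 4.0.16 (TMM, its filter for low counts, quasi-likelihood test) in R 4.3.3, with DESeq2 1.42.0 as an alternative. The fit was also run on data simulated with a common spread for all genes, which does not stand for genes whose sections lie as far apart as in Calb1. No exact test of 2 sections against 2 can reach 0.05, so p-values draw on variance shared across genes.

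Alternatives changed the scaling, the reference, the cells kept, the depth, the minimum level, the test, the filter and the sections. Leaving cluster 13 out of the reference, and using the cells of integrated cluster 9 alone, were chosen after seeing the data. Promoters came from RefSeq on GRCm38.p6 and gene positions from GENCODE on GRCm38. Some members of the lists are not reported here.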

Additional observations from a re-analysis of the deposited data

Results flagged for a closer look

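Calb1, the leading gene of cluster 11, was also found outside the cells that were clustered. In 647 DES epithelial cells that carry no DES cluster number, it was at 172 CPM (165 to 180), against 19.1 CPM (18.2 to 20.1) in the 2583 CO epithelial cells. This stands out because the comparisons above do not use these cells. The 647 cells had 3172 CPM of Krt14 and 217 CPM of Trp63, against 0.838 and 0.0761 CPM in the CO cells. The authors took out basal cells by these 2 genes before clustering, so a basal-rich part of DES epithelium is set beside all CO epithelium. The Calb1 level came from few cells: 34 of the 647 (5.26%, 3.67 to 7.27) held 5 or more Calb1 UMIs, with up to 287 in 1 cell. The share in CO epithelial cells was 3.48% (2.81 to 4.27; 90 of 2583, with up to 33 in 1 cell), and the 2 intervals overlap. These shares were taken without thinning, and the DES cells were shallower, with a median of 14714 UMIs against 23458 UMIs in the CO cells. Those 34 cells had 2234 CPM of Calb1, 276 CPM of Msx1, 1509 CPM of Epcam and 100 CPM of Krt14. The other 613 had 1.16, 10.0, 537 and 3427 CPM of these genes. The 34 cells were chosen by their Calb1 counts, so that their Calb1 level is no finding, and with 1 DES library the difference has no replicate check.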

How the results depend on the processing

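The counts of genes past 1.5-fold in cluster 11 (422 higher, 359 lower) depended on depth and on the minimum level. Cells thinned to 3000 UMIs gave 1170 higher and 1001 lower, a minimum of 50 CPM gave 120 and 121, and a minimum of 1 CPM gave 1147 and 1061, with more or fewer genes compared in the last 2. The other alternatives, among them the reference without cluster 13 or cluster 9 and the cells of integrated cluster 9 alone, stayed within 1.5 times of both counts. The other clusters without each cluster in turn, also added after the data were seen, ended the lower calls of immediate early genes (7 to 0, without cluster 9) and of cell cycle genes (3 to 0, without cluster 6) and left 2 of 4 in heat shock genes, while the counts for lipid synthesis, MHC, interferon-stimulated, luminal and mucin genes stayed within 1.5 times. Calls of 1 to 3 genes also changed in smaller lists, among them Notch3 (uncompared without cluster 0, 5, 10 or 14), the 1 higher unfolded protein response gene (0 without cluster 5 or 7), the 2 lower antioxidant genes (1 without cluster 0, 1, 5, 7, 12 or 14), the 2 lower transcription factors (1 without cluster 0, 1 or 5) and the 2 higher estrogen-responsive genes (1 without cluster 0). Thinning to 3000 UMIs reversed Greb1 (log2 ratio -0.24), Slc39a14 (-0.0013) and Srebf2 (-0.21), and the cause was not tested. Over these alternatives, apart from the minimum levels, the 15 highest genes kept log2 ratios above 1.1 and the 15 lowest kept -2.32 or less. The shares of cells rose with depth by construction. At 5000 UMIs and without thinning, Sult1d1 was in 22.8% and 65.4% of cluster 11 cells, Napsa in 56.2% and 98.1%, and Calb1 in 51.2% and 80.2%, and both gland markers were in 64.8% of cells without thinning. In the sections, DESeq2 called 805 genes higher and 951 lower in DES. Other size factors or no filter kept both counts within 1.5 times. Leaving out 1 section gave 3 to 1311 higher and 0 to 1508 lower: without DES section A edgeR called 14 and 0, without DES section B 3 and 0, without CO section A 1311 and 1508, and without CO section B 1148 and 1188. At an unadjusted p under 0.05, edgeR called 828 higher and 894 lower without DES section A and 841 and 871 without DES section B. The section left alone in its group is then assumed to vary like the other group. The log2 change of Pla2g7 ran from -0.76 to 0.86 over the sections left out, that of Ccl28 from -3.20 to 0.041 and that of Napsa from -1.74 to 0.10, the first 2 reversing without CO section A and Napsa without CO section B. No paired analysis was possible because the section letters name separate mice and link no mouse of one condition to a mouse of the other. The Calb1 level in the DES sections rests on 10 and 3 UMIs, and the depth of these 2 sections limits it.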
